A study of Mus musculus with 16 samples.

Results

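The genes described here are 44 mouse genes of the endoplasmic reticulum (ER) protein folding and quality control system: chaperones, disulfide isomerases, the machinery of ER-associated degradation (ERAD) and the sensors that regulate them. They were chosen by name, with earlier results of these data known. All 44 were measured, by 85 probe sets out of 22626 on the array and as 44 of 12393 genes with a symbol of their own. Ero1l and Ero1lb were found under their newer names Ero1a and Ero1b, the others under the listed symbol. A probe set is the group of short array probes that measures 1 transcript, and 24 of the 44 genes had several.

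Liver RNA of male FvB/n mice was measured on 16 arrays in 2 experiments. The first held 4 arrays of TTR::Fv2E-PERK mice given AP20187 and 4 of untreated TTR::Fv2E-PERK mice. Fv2E-PERK is a fusion of the kinase domain of PERK, the ER stress kinase that phosphorylates eIF2α, to drug-binding modules, and AP20187 joins these modules and so brings the kinase together. All mice of this experiment carried the transgene, in a line labelled high expression and driven by the transthyretin promoter, which is active in hepatocytes. Untreated mice without the transgene and transgene-free mice given AP20187 were not analysed here, so the compound and the kinase cannot be told apart. The second experiment held 2 arrays for each of 4 groups: Alb::GC and wildtype mice fed a high fat diet (HFD), and Alb::GC and wildtype mice fed a low fat diet (LFD). In Alb::GC mice the albumin promoter of hepatocytes drives an active GADD34 fragment, which directs a phosphatase to eIF2α and so counters PERK. The labels do not state ages, doses, times or whether arrays came from separate animals, so p-values here reflect the spread of these samples alone, possibly a technical one.

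The deposited value is a ratio around 1 for each probe set and array. What it is relative to is not given in the sources used here, so it holds no level: ratios of different genes, and of the 2 experiments, were not set against each other. Changes are differences in log2(ratio + 0.05), given with their standard error (SE). A gene rose or fell where limma's Benjamini-Hochberg adjusted p over all 22626 probe sets was under 0.05. Each gene is represented by the probe set that varied least between replicates. Array medians lay between 0.94 and 1.02.

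Proteins that enter the ER fold with the help of the HSP70 chaperone BiP and its J-domain partners, of lectin chaperones that hold sugar chains, and of isomerases that form and rearrange disulfide bonds. Proteins that fail to fold are drawn back to the cytosol through the membrane complex of HRD1 and SEL1L and destroyed, which is ERAD. When unfolded protein accumulates, IRE1 splices the messenger of the transcription factor XBP1 and ATF6 is cut free from the ER membrane, and both then drive chaperone and ERAD genes. PERK acts beside them by phosphorylating eIF2α, which slows protein synthesis and favours translation of ATF4. Liver cells secrete most plasma proteins, so they depend heavily on this system.

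The ER stress response element is the best known sequence shared by these genes. It is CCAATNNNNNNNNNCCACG, bound through its CCACG end by ATF6 and XBP1, and its second form is ATTGGNCCACG. Both were searched on both strands from 250 bases before to 50 bases after each RefSeq start in GRCm38.p6, with 38 of the 44 genes having at least 1 such window. The element was defined from genes of this kind, so its presence here is a description. The first form stood in 10 of the 38 genes (26.3%), against 37 of 27025 genes in all (0.137%). The second form stood in Herpud1 and Dnajb11 (5.26%), against 12 genes in all (0.0444%). The XBP1 site core TGACGTGG was in the windows of Txndc11, Txndc5 and Vcp (7.89%), against 0.714% of all genes, and the C/EBP-ATF site TGATGNAAN that CHOP and ATF4 can bind was in those of Herpud1 and Txndc5 (5.26%), against 4.5%. Those 2 motifs do not overlap the elements in these genes.

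The sequences below show the element in 7 of the genes described in the results, each on the strand of its gene, 5′ to 3′, with the bases that the element fixes in capitals. Elements on the opposite strand read as CGTGG and ATTGG. They lie upstream of the RefSeq start, in GRCm38.p6 at chr2:34772015-34772053 for Hspa5 on the plus strand, chr10:86705523-86705666 for Hsp90b1 on the minus strand, chr14:118937817-118937855 for Dnajc3 on the plus strand, chr15:88819510-88819548 for Creld2 on the plus strand, chr10:75893232-75893270 for Derl3 on the plus strand, chr12:17266481-17266519 for Pdia6 on the plus strand and chr8:94386367-94386397 for Herpud1 on the plus strand.
Hspa5: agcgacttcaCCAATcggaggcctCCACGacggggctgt
Hsp90b1: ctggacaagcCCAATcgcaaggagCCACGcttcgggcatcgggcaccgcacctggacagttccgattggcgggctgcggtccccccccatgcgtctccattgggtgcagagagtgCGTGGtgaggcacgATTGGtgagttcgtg
Dnajc3: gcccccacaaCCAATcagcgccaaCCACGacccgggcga
Creld2: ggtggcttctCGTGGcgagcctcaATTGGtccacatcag
Derl3: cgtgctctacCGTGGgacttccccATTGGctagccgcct
Pdia6: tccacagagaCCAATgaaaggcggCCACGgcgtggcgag
Herpud1: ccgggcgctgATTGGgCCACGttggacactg
In Hspa5 the element began 65 bases before the start, and Hsp90b1 held 2 elements in opposite orientations.

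With AP20187, most of the folding machinery fell, and 3 of the 4 sensors and transcription factors rose. Of the 44 genes, 29 fell, 5 rose and 10 did not pass. Over all 12393 genes tested, 22.4% fell and 14.9% rose. The median log2 change was -0.67 over the 44 genes and -0.15 over all genes. The 5 genes that rose were Atf6, Ern1, Herpud1, Ero1l and Xbp1, and in each of them every AP20187 array lay above every untreated array, as in 16% of all genes. In 30 genes every AP20187 array lay below every untreated array, as in 22.7% of all genes, and in 9 the groups overlapped. Across probe sets, 48 of 85 fell and 10 rose, while 20.4% of all 22626 probe sets fell and 13.7% rose. Bulk liver was measured, so fewer cells of a type and less RNA per cell cannot be told apart.

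**Figure D1:**
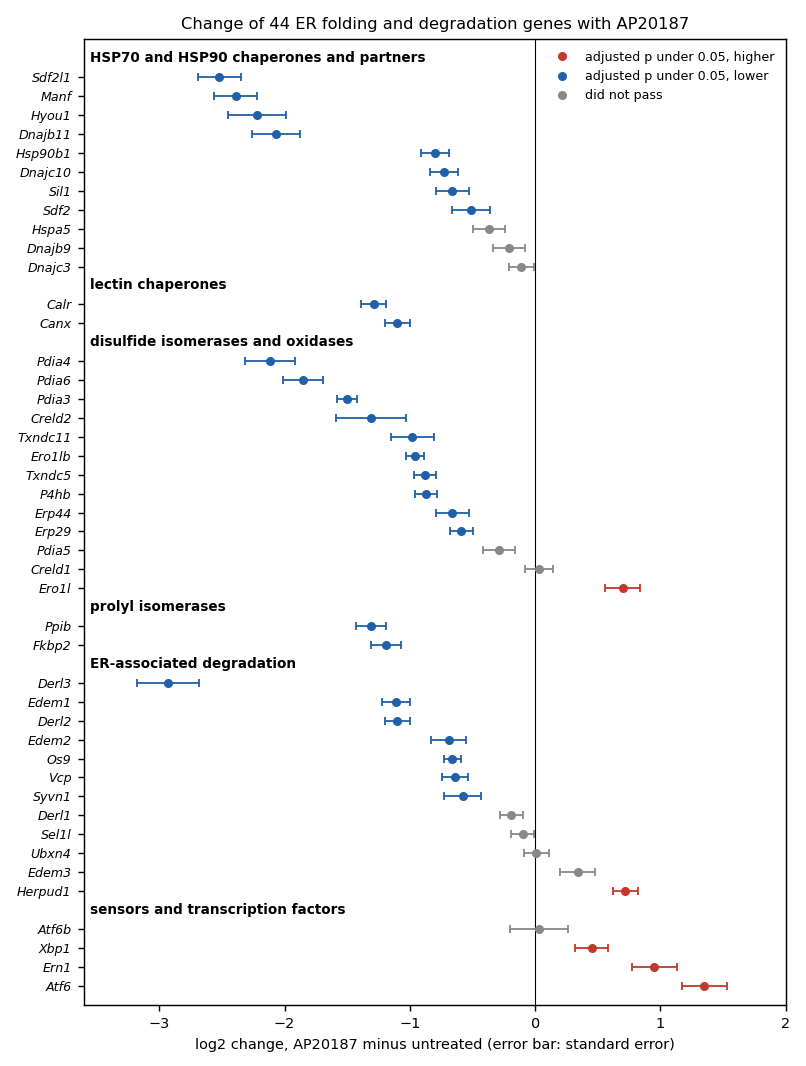
Change of each of the 44 genes with AP20187, by role. The x axis is the log2 change, AP20187 minus untreated (4 arrays each), and bars are standard errors. Derl3 stands furthest left at -2.93 and Atf6 furthest right at 1.35.

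Among the 11 chaperones of the HSP70 and HSP90 families and their partners, 8 fell, none rose and 3 did not pass. The sharpest fall was in Sdf2l1, whose protein associates with the J-domain partner of BiP encoded by Dnajb11. Sdf2l1 had ratios of 0.62, 0.76, 0.56 and 0.87 in AP20187 livers, against 3.99, 4.83, 3.44 and 4.70 in untreated livers. The groups stood far apart, with a log2 change of -2.52 ± 0.17 (SE, adjusted p = 9.37e-05), 5.72-fold lower. Dnajb11 itself had 0.27, 0.43, 0.55 and 0.38 in AP20187 livers, against 1.67, 1.78, 1.90 and 1.96 in untreated livers, 4.20-fold lower (log2 -2.07 ± 0.19, adjusted p = 0.000196). Both members of this pair therefore fell, and Sdf2, the paralog of Sdf2l1, had a smaller change of -0.51. That call for Sdf2 ended when any 1 of 6 arrays was left out, AP20187 arrays 1, 2 and 4 and untreated arrays 1, 3 and 4, with adjusted p between 0.0528 and 0.0736 and log2 changes from -0.63 to -0.43 over all 8 omissions.

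Manf encodes a secreted protein that binds BiP in the ER. It had 0.28, 0.35, 0.40 and 0.40 in AP20187 livers, against 2.07, 1.64, 2.08 and 2.58 in untreated livers, 5.23-fold lower (log2 -2.39 ± 0.17, adjusted p = 9.97e-05). Hyou1, a large HSP70 relative that also exchanges nucleotide on BiP, had 0.38, 0.34, 0.53 and 0.75 in AP20187 livers, against 2.53, 2.39, 2.80 and 1.97 in untreated livers. Its groups did not overlap, and its log2 change was -2.22 ± 0.23 (adjusted p = 0.000303). The other Hyou1 probe sets gave smaller changes of -0.88, which passed, and -0.76, which did not. Sil1, the second exchange factor of BiP, fell by 0.66 on the log2 scale.

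The genes of BiP and GRP94, abundant chaperones of the ER lumen, changed less. Hsp90b1 (GRP94) had 0.78, 0.67, 0.78 and 0.75 in AP20187 livers, against 1.37, 1.22, 1.21 and 1.57 in untreated livers, 1.75-fold lower (log2 -0.80 ± 0.11, adjusted p = 0.00105). Hspa5 (BiP) had 0.77, 0.80, 0.77 and 0.70 in AP20187 livers, against 0.99, 0.83, 1.01 and 1.18 in untreated livers. All 4 treated arrays were lower, yet its log2 change of -0.37 ± 0.13 did not pass (adjusted p = 0.062). The second Hspa5 probe set had a change of -0.23. Of the remaining J-domain genes, Dnajc10, whose protein reduces disulfides in proteins bound for ERAD, fell by 0.73 on the log2 scale. Dnajb9 at -0.21 and Dnajc3, an ER J-domain protein also known as an inhibitor of eIF2α kinases, at -0.11 did not pass, and none of the 5 probe sets of Dnajc3 passed.

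Both lectin chaperones fell. Calr (calreticulin) had 0.63, 0.64, 0.78 and 0.64 in AP20187 livers, against 1.64, 1.76, 1.61 and 1.85 in untreated livers, and all 3 of its probe sets fell, by 1.12 to 1.29 on the log2 scale. Canx (calnexin) had 0.69, 0.67, 0.81 and 0.73 in AP20187 livers, against 1.68, 1.50, 1.49 and 1.79 in untreated livers, and its 3 probe sets fell by 0.99 to 1.34. The disulfide isomerase that works with both of them, Pdia3, fell further than either. It had 0.79, 0.80, 0.81 and 0.75 in AP20187 livers, against 2.42, 2.44, 2.32 and 2.08 in untreated livers (log2 -1.50 ± 0.08, adjusted p = 5.74e-05).

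Of the 13 disulfide isomerases, oxidases and their relatives, 10 fell, 1 rose and 2 did not pass. Pdia4 had 0.74, 0.64, 1.24 and 0.85 in AP20187 livers, against 3.55, 3.83, 3.77 and 4.23 in untreated livers, 4.36-fold lower (log2 -2.12 ± 0.20, adjusted p = 0.000189). The second Pdia4 probe set did not move, at 0.02 ± 0.14 with an adjusted p of 0.943, so this fall rests on 1 probe set. Pdia6 had 0.54, 0.80, 0.91 and 0.83 in AP20187 livers, against 3.21, 2.72, 3.04 and 2.50 in untreated livers, and both of its probe sets fell, by 1.85 and 1.49. Creld2, an ER stress-inducible member of this group, had 0.61, 0.68, 0.87 and 0.69 in AP20187 livers, against 2.13, 0.97, 2.20 and 2.42 in untreated livers. The groups did not overlap although untreated array 2 stood well below the other untreated arrays (log2 -1.31 ± 0.28, adjusted p = 0.00756). P4hb, the classical protein disulfide isomerase, had a change of -0.87, and Txndc11, Txndc5, Erp44 and Erp29 fell by 0.98, 0.88, 0.66 and 0.59. Pdia5 at -0.29 and Creld1 at 0.03 did not pass.

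The ER oxidases, which recharge the isomerases, moved in opposite directions. Ero1l, the broadly expressed form, had 0.98, 1.02, 1.19 and 0.86 in AP20187 livers, against 0.60, 0.58, 0.63 and 0.60 in untreated livers, 1.62-fold higher (log2 0.70 ± 0.14, adjusted p = 0.00623). Ero1lb, best known from the pancreas, had 0.81, 0.85, 0.80 and 0.84 in AP20187 livers, against 1.79, 1.58, 1.62 and 1.61 in untreated livers, 1.94-fold lower (log2 -0.96 ± 0.07, adjusted p = 1e-04). All 3 probe sets of Ero1l rose, by 0.52 to 0.70, and all 3 of Ero1lb fell, by 0.96 to 1.40. The prolyl isomerases both fell. Ppib (cyclophilin B) had 0.79, 0.72, 1.0 and 0.85 in AP20187 livers, against 2.21, 2.17, 1.87 and 2.38 in untreated livers, and Fkbp2 had 0.97, 0.87, 1.09 and 0.78 in AP20187 livers, against 2.27, 2.12, 1.88 and 2.40 in untreated livers. Their log2 changes were -1.31 ± 0.12 and -1.19 ± 0.12.

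**Figure D2:**
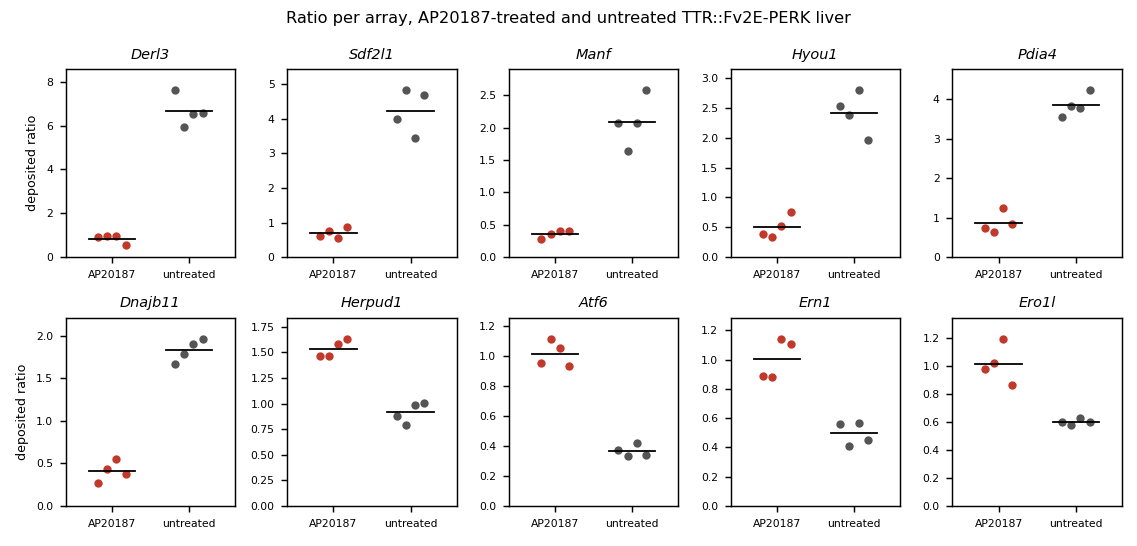
Deposited ratio of 10 genes in each AP20187 array (left of each panel) and each untreated array (right), with the group mean as a line. Derl3, Sdf2l1, Manf, Hyou1, Pdia4 and Dnajb11 lie lower with AP20187, and Herpud1, Atf6, Ern1 and Ero1l lie higher, with no overlap of the groups in any panel.

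Of the 12 ERAD genes, 7 fell, 1 rose and 4 did not pass. Derl3, a derlin of the channel through which ERAD clients leave the ER, changed most of all 44 genes. It had 0.91, 0.95, 0.95 and 0.56 in AP20187 livers, against 7.61, 5.91, 6.53 and 6.56 in untreated livers, 7.63-fold lower (log2 -2.93 ± 0.25, adjusted p = 0.000136). Its paralogs ranged widely. Derl2 had 1.07, 0.85, 1.03 and 0.97 in AP20187 livers, against 2.02, 2.09, 2.07 and 2.46 in untreated livers (log2 -1.10 ± 0.10, adjusted p = 0.000211). Derl1 did not pass at -0.19 ± 0.09, and of its other 3 probe sets 1 fell, by 0.39.

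Edem1, a mannosidase-like protein that marks glycoproteins for ERAD, had 0.95, 0.75, 1.0 and 0.77 in AP20187 livers, against 2.04, 1.80, 2.04 and 1.79 in untreated livers (log2 -1.11 ± 0.11, adjusted p = 0.000293). Edem2 fell by 0.69, while Edem3 had a change of 0.34 that did not pass (adjusted p = 0.103). Os9, the lectin that delivers marked glycoproteins to the ligase, fell by 0.66. Vcp, the ATPase that pulls ERAD clients out of the membrane, had 0.80, 0.72, 0.85 and 0.73 in AP20187 livers, against 1.23, 1.17, 1.17 and 1.37 in untreated livers. Its log2 change was -0.64 ± 0.10, and its second probe set fell by 1.33.

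The ligase complex itself showed no common direction. Syvn1, which encodes the ligase HRD1, fell by 0.58, with overlapping groups. The Syvn1 call ended without AP20187 array 1 or 4 or untreated array 1 or 3, with adjusted p of 0.0508 to 0.056. Sel1l, its adaptor, had a change of -0.10 ± 0.09 and none of its 4 probe sets passed. Herpud1, which joins the ligase complex and is itself induced by ER stress, rose. It had 1.47, 1.47, 1.58 and 1.63 in AP20187 livers, against 0.88, 0.79, 0.99 and 1.01 in untreated livers, 1.65-fold higher (log2 0.72 ± 0.10, adjusted p = 0.000894), and its second probe set rose by 1.14. Ubxn4, which recruits Vcp to the ER membrane, had a change of 0.01.

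Of the 4 sensors and transcription factors, 3 rose and none fell. Atf6 had 0.95, 1.11, 1.05 and 0.93 in AP20187 livers, against 0.37, 0.33, 0.42 and 0.34 in untreated livers, 2.56-fold higher (log2 1.35 ± 0.18, adjusted p = 0.000856). Atf6b, its paralog, did not pass at 0.03 ± 0.23. Ern1, the gene of IRE1α, had 0.89, 0.88, 1.14 and 1.11 in AP20187 livers, against 0.56, 0.41, 0.57 and 0.45 in untreated livers, 1.93-fold higher (log2 0.95 ± 0.18, adjusted p = 0.00494). Its other probe sets had changes of 0.87 and -0.28 that did not pass, and the mean of the 3 did not pass either.

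Xbp1 had 0.92, 0.98, 1.09 and 1.02 in AP20187 livers, against 0.72, 0.62, 0.71 and 0.85 in untreated livers, 1.36-fold higher (log2 0.45 ± 0.13, adjusted p = 0.0304). Of its 4 probe sets 3 rose, by 0.45 to 0.88, and the other had a change of -0.23 that did not pass. The Xbp1 call ended when any 1 of AP20187 arrays 2, 3 and 4 and untreated arrays 1, 2 and 3 was left out, with adjusted p of 0.0594 to 0.0727 and log2 changes between 0.38 and 0.52. These probe sets measure the amount of Xbp1 messenger and were not read as a measure of its splicing.

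Genes with an ER stress response element in their window and genes without one both fell more often than they rose with AP20187. Of the 12 genes with either form of the element 9 fell and 1 rose, with a median log2 change of -1.03. Of the 26 genes with a window and no element 16 fell and 3 rose, with a median of -0.66. Over all 9882 measured genes with a window 23.2% fell and 15.4% rose, with a median of -0.15. The single riser with an element was Herpud1, shown above, and the largest faller was Derl3. Outside the 44 genes, 14 measured genes carried an element, of which 3 fell and 3 rose. No test was made of these differences.

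A longer list of 69 other ER quality control genes, chosen by function, also mostly fell or did not pass with AP20187. Of these 37 fell and 2 rose, against the 22.4% and 14.9% of all genes, with a median of -0.49. The largest falls were in Nucb2, a calcium-binding protein, at -2.40 ± 0.47, Rpn1 and Dad1, subunits of the oligosaccharyltransferase that attaches sugar chains, at -1.62 ± 0.11 and -1.56 ± 0.10, and Uggt1, the enzyme that returns misfolded glycoproteins to calnexin, at -1.60 ± 0.15. The 2 that rose were Ube2g2, a ubiquitin-conjugating enzyme of ERAD, at 1.05 ± 0.20, and Creb3l3, a liver transcription factor freed from the ER membrane in the manner of ATF6, at 0.51 ± 0.12. Eif2ak3, the gene of PERK, did not pass at 0.39 ± 0.15.

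Markers of several liver cell types fell beside these genes. Of all genes tested, 22.4% fell and 14.9% rose with AP20187. The summed ratio of 11 genes listed as hepatocyte markers was 9.76 to 10.6 in AP20187 livers, against 13.9 to 15.3 in untreated livers. Of the 11, 7 fell and 1 rose. Among the 11 is Trh, the gene of thyrotropin-releasing hormone, which a synonym matched in place of the listed Trf (transferrin). Trh does not mark hepatocytes, did not pass at -0.79 ± 0.68 and is part of the sums. For macrophage markers, 7 of 11 fell (8.56 to 11.2 in AP20187 livers, against 13.1 to 14.1 in untreated livers). For stellate cell markers, 7 of 10 fell (8.74 to 9.89 in AP20187 livers, against 16.2 to 18.4 in untreated livers), and for endothelial markers 4 of 8 fell (7.3 to 8.47 in AP20187 livers, against 9.63 to 10.4 in untreated livers). Of 8 plasma and B cell markers, which mark cells rich in ER, none passed, and their sums overlapped at 7.52 to 11 in AP20187 livers and 7.08 to 12.6 in untreated livers. Of 7 exocrine pancreas markers 1 fell, Cela1, with sums of 4.83 to 8.02 in AP20187 livers and 7.68 to 11.1 in untreated livers. Of 4 cholangiocyte markers 1 rose, and none of 4 T cell or 5 neutrophil markers passed. No marker was at the smallest deposited value, 0.01, in every array, but ratios hold no level, so how much of each cell type was present could not be read from them. The part of these cell types in the ER gene changes was not tested.

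RNA quality was read from the log2 difference between control probe sets at the 3′ and 5′ ends of 2 messengers. For beta-actin it was -0.04 to 0.16 in AP20187 arrays and -0.18 to -0.02 in untreated arrays. For Gapdh it was -0.15 to 0.20 in AP20187 arrays and -0.06 to -0.01 in untreated arrays. Both pairs of ranges overlapped, but for beta-actin only through AP20187 array 1 at -0.04 and untreated array 4 at -0.02. AP20187 arrays 2, 3 and 4 stood at 0.16, above every untreated array. The part of RNA quality in the AP20187 changes was not tested.

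With HFD, 11 of the 44 genes rose, among them the chaperones BiP and GRP94, and 5 fell. Averaged over the genotypes, 4 HFD arrays against 4 LFD arrays, 11 rose, 5 fell and 28 did not pass. Over all genes tested, 10.8% rose and 16.8% fell. The median log2 change was 0.09 over the 44 genes and -0.13 over all genes. The 11 that rose were Hspa5, Hsp90b1, Dnajc3, Manf, Creld2, Ero1lb, Sel1l, Herpud1, Vcp, Ubxn4 and Atf6, and the 5 that fell were Dnajc10, Sdf2l1, Pdia4, Pdia6 and Ppib. In 11 of the 44 genes every HFD array lay above every LFD array, as in 10.5% of all genes. In 5 every HFD array lay below every LFD array, as in 19.2% of all genes, and in 28 they overlapped.

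By role, 4 of the 11 HSP70 and HSP90 chaperones and partners rose and 2 fell, 4 of the 12 ERAD genes rose and none fell, and 2 of the 13 disulfide isomerases and oxidases rose and 2 fell. Hspa5 had 1.53 and 1.60 in HFD Alb::GC livers and 1.05 and 1.11 in HFD wildtype livers, against 0.72 and 0.85 in LFD Alb::GC livers and 0.69 and 0.57 in LFD wildtype livers. Every HFD array was above every LFD array, with a log2 change of 0.85 ± 0.12 (adjusted p = 0.00732), 1.80-fold higher. The second Hspa5 probe set had a change of 0.24 that did not pass. Hsp90b1 had 1.96 and 2.14 in HFD Alb::GC livers and 1.56 and 1.55 in HFD wildtype livers, against 0.79 and 1.0 in LFD Alb::GC livers and 0.89 and 0.70 in LFD wildtype livers. Both of its probe sets rose, by 1.05 and 1.37 on the log2 scale.

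Manf and Creld2, both ER stress-inducible, rose with HFD, whereas both fell with AP20187. Manf had 1.70 and 1.59 in HFD Alb::GC livers and 1.02 and 1.03 in HFD wildtype livers, against 0.81 and 0.79 in LFD Alb::GC livers and 0.62 and 0.65 in LFD wildtype livers (log2 0.82 ± 0.10, adjusted p = 0.00492). Creld2 had 2.27 and 2.55 in HFD Alb::GC livers and 0.90 and 1.10 in HFD wildtype livers, against 0.86 and 0.75 in LFD Alb::GC livers and 0.41 and 0.59 in LFD wildtype livers. It had the largest rise of the 44 genes, 2.35-fold (log2 1.24 ± 0.15, adjusted p = 0.00492).

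Sel1l had the smallest adjusted p of the 44 genes in this comparison. It had 1.84 and 2.15 in HFD Alb::GC livers and 1.63 and 1.72 in HFD wildtype livers, against 0.94 and 0.90 in LFD Alb::GC livers and 0.98 and 0.83 in LFD wildtype livers (log2 0.96 ± 0.10, adjusted p = 0.00332). All 4 of its probe sets rose, by 0.91 to 2.29. Its ligase Syvn1 did not pass at 0.64 ± 0.24 (adjusted p = 0.0901). Atf6 had 1.73 and 1.68 in HFD Alb::GC livers and 1.35 and 1.55 in HFD wildtype livers, against 0.64 and 0.87 in LFD Alb::GC livers and 1.03 and 0.66 in LFD wildtype livers, 1.94-fold higher (log2 0.96 ± 0.17, adjusted p = 0.0129). Ern1 at 0.53 ± 0.18 and Xbp1 at 0.02 ± 0.11 did not pass, and the other 2 probe sets of Ern1 fell, by 1.37 and 0.36.

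**Figure D3:**
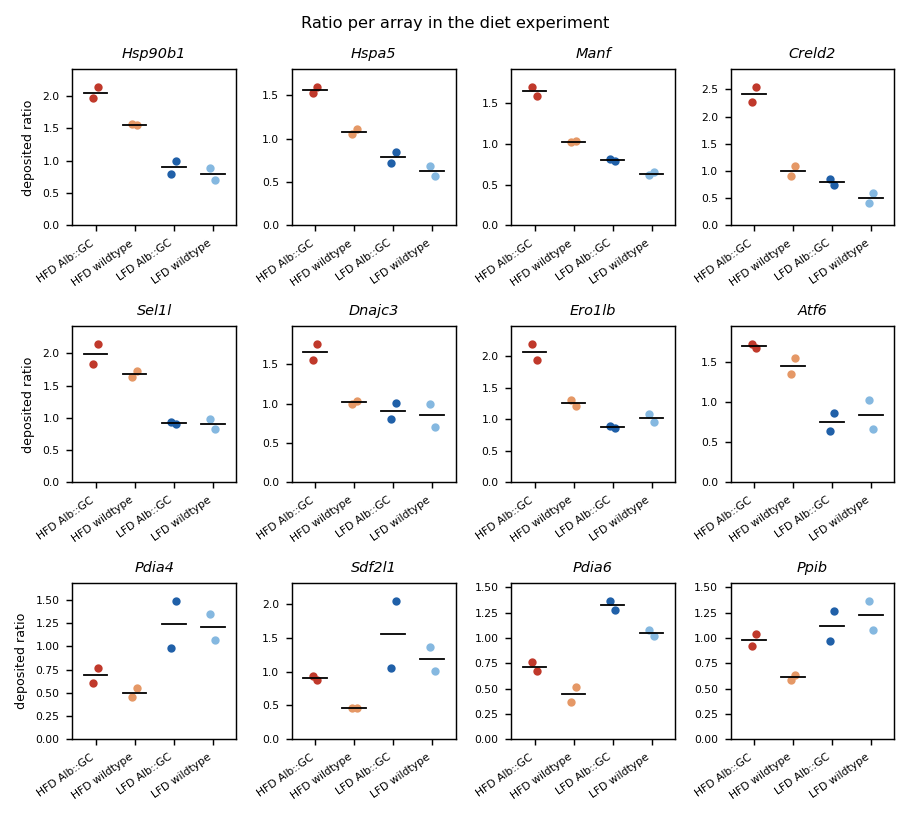
Deposited ratio of 12 genes in each array of the diet experiment, in the order HFD Alb::GC, HFD wildtype, LFD Alb::GC and LFD wildtype (2 arrays each), with the group mean as a line. The first 8 panels hold genes that rose with HFD, such as Creld2 at 2.27 and 2.55 in HFD Alb::GC livers, and the last 4 hold genes that fell.

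The other rises were smaller or differed between probe sets. Dnajc3 had 1.55 and 1.76 in HFD Alb::GC livers and 1.0 and 1.03 in HFD wildtype livers, against 0.81 and 1.01 in LFD Alb::GC livers and 1.0 and 0.70 in LFD wildtype livers. Of its 5 probe sets 4 rose, by 0.44 to 1.93, and the other had a change of -0.05. Ero1lb had 2.20 and 1.94 in HFD Alb::GC livers and 1.30 and 1.21 in HFD wildtype livers, against 0.89 and 0.87 in LFD Alb::GC livers and 1.09 and 0.96 in LFD wildtype livers. This probe set rose by 0.73, while the other probe sets of Ero1lb had changes of -0.07 and -0.13, so the rise rests on 1 of 3. Herpud1 had 1.01 and 1.01 in HFD Alb::GC livers and 1.05 and 1.13 in HFD wildtype livers, against 0.78 and 0.75 in LFD Alb::GC livers and 0.81 and 0.66 in LFD wildtype livers, and both of its probe sets rose, by 0.46 and 0.74.

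Vcp had 1.33 and 1.38 in HFD Alb::GC livers and 1.35 and 1.51 in HFD wildtype livers, against 0.96 and 1.01 in LFD Alb::GC livers and 1.16 and 0.90 in LFD wildtype livers, and both probe sets rose, by 0.45 and 1.34. Ubxn4, its recruiter, had 1.26 and 1.30 in HFD Alb::GC livers and 1.13 and 1.03 in HFD wildtype livers, against 0.68 and 0.83 in LFD Alb::GC livers and 0.83 and 1.01 in LFD wildtype livers. All 3 probe sets of Ubxn4 rose, by 0.48 to 1.17. Every probe set of Sel1l, Vcp and Ubxn4 thus rose, while 8 of the 12 ERAD genes did not pass. The calls for Vcp and Ubxn4 each ended when any 1 of 6 arrays was left out.

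The 5 genes that fell with HFD were enzymes of disulfide and prolyl isomerisation and partners of BiP. Pdia6 had 0.76 and 0.67 in HFD Alb::GC livers and 0.37 and 0.52 in HFD wildtype livers, against 1.37 and 1.28 in LFD Alb::GC livers and 1.08 and 1.02 in LFD wildtype livers (log2 -1.01 ± 0.17, adjusted p = 0.0102). Pdia4 had 0.61 and 0.77 in HFD Alb::GC livers and 0.45 and 0.55 in HFD wildtype livers, against 0.98 and 1.49 in LFD Alb::GC livers and 1.35 and 1.07 in LFD wildtype livers. Its log2 change was -0.98 ± 0.20. Sdf2l1 had 0.94 and 0.88 in HFD Alb::GC livers and 0.47 and 0.46 in HFD wildtype livers, against 1.06 and 2.05 in LFD Alb::GC livers and 1.37 and 1.01 in LFD wildtype livers. Its log2 change was -0.96 ± 0.23.

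Dnajc10 had 0.70 and 0.69 in HFD Alb::GC livers and 0.62 and 0.68 in HFD wildtype livers, against 0.90 and 0.97 in LFD Alb::GC livers and 1.40 and 1.20 in LFD wildtype livers. Ppib had 0.92 and 1.04 in HFD Alb::GC livers and 0.59 and 0.64 in HFD wildtype livers, against 0.97 and 1.27 in LFD Alb::GC livers and 1.37 and 1.08 in LFD wildtype livers. Their log2 changes were -0.67 ± 0.13 and -0.55 ± 0.15. In 4 of these 5 genes the other probe sets did not pass. They had changes of 0.43 for Pdia6, 0.02 for Pdia4, 0.09 and -0.13 for Dnajc10 and -0.08 for Ppib, and Sdf2l1 had 1 probe set only. Calls were the same on every probe set in 15 of the 24 genes with several in the diet comparison and in 19 of the 24 with AP20187, and no gene had probe sets that both rose and fell within a comparison. Hyou1 had 1 probe set that rose by 0.47 while its least variable one had a change of -0.42 that did not pass.

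**Figure D4:**
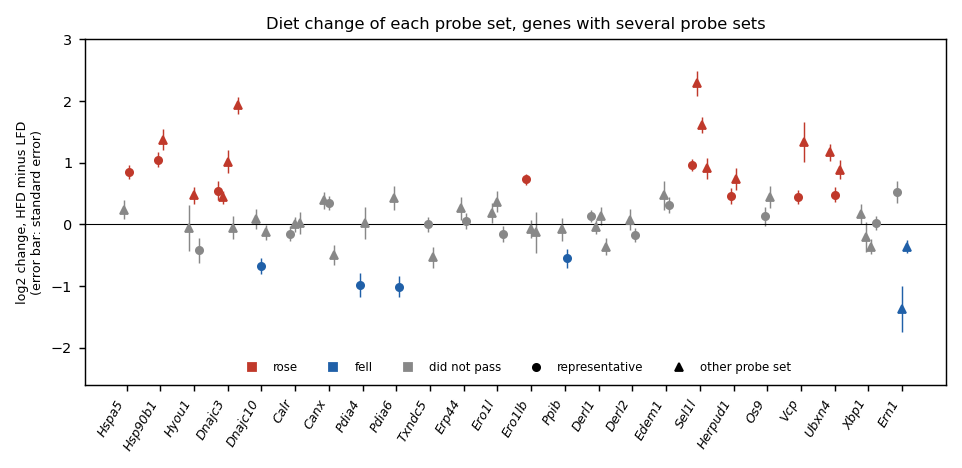
Change of each probe set of the 24 genes with several probe sets, as log2 change of HFD minus LFD averaged over genotypes, with the standard error as a bar; circles are the probe set used for the gene, triangles the others. The 4 probe sets of Sel1l lie between 0.91 and 2.29, whereas those of Pdia6 stand at -1.01 and 0.43.

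Leaving out 1 array at a time bears on most of the smaller diet calls. The calls for Hspa5, Hsp90b1, Manf, Creld2, Sel1l and Atf6 held without any 1 of the 8 arrays and under every other setting tried, and those for Ero1lb and Pdia6 held without any 1 array. The Dnajc3 and Herpud1 calls each ended in 7 of the 8 omissions, those for Ubxn4, Vcp, Sdf2l1 and Ppib in 6, that for Pdia4 in 3 and that for Dnajc10 in 1, without HFD wildtype array 1 (adjusted p = 0.0534). The adjusted p of a lost call reached at most 0.142. The number of genes that rose was 7 without either HFD Alb::GC array, either HFD wildtype array or LFD Alb::GC array 1. The number that fell was 1 without HFD wildtype array 1, 2 without HFD Alb::GC array 1 or LFD Alb::GC array 2, and 3 without HFD Alb::GC array 2, HFD wildtype array 2 or LFD wildtype array 1. No log2 change turned its sign in any of these omissions.

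In wildtype livers alone, 2 HFD arrays against 2 LFD arrays, 5 genes rose and 4 fell. Over all genes tested, 6.03% rose and 7.97% fell. The 5 were Hspa5, Hsp90b1, Manf, Creld2 and Sel1l, with log2 changes of 0.74, 0.93, 0.65, 0.95 and 0.86. The 4 were Dnajc10, Pdia4, Pdia6 and Ppib, at -0.94, -1.19, -1.17 and -0.93. With quantile normalization 5 rose and 2 fell. In Alb::GC livers alone 7 genes rose and none fell, whereas 3.77% of all genes rose and 2.46% fell. At an unadjusted p under 0.05, 16 of the 44 genes passed in Alb::GC livers, against 27.7% of all genes. The 7 were the same 5 genes, with log2 changes of 0.96 for Hspa5, 1.16 for Hsp90b1, 1.0 for Manf, 1.53 for Creld2 and 1.07 for Sel1l, together with Ero1lb at 1.19 and Atf6 at 1.14. The 5 shared genes are 100% of the wildtype list and 71.4% of the Alb::GC list. The same overlap was not counted over all genes. Both lists also come from 1 fit with a shared spread for each probe set, so their overlap is a description only. Each of these calls within 1 genotype was lost in at least 3 of the 8 omissions. When either HFD wildtype array was left out no gene rose in wildtype livers, and when any 1 of the 4 Alb::GC arrays was left out none rose in Alb::GC livers.

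On HFD the Alb::GC arrays stood above the wildtype arrays in most of the 44 genes, although no single gene passed the test. The log2 change, Alb::GC minus wildtype, was above 0 in 40 of the 44 genes, against 6648 of all 12393 genes. It was above 0 in 52 of the 69 other ER quality control genes as well. The median was 0.33 over the 44 genes, 0.17 over the 69 and 0.03 over all genes. With limma none of the 44 passed, against 0.137% of all genes, and 15 had an unadjusted p under 0.05, against 11.1% of all genes. Both Alb::GC arrays lay above both wildtype arrays in 31 genes (70.5%), against 26.6% of all genes, and below both in 3 genes (6.82%), against 21.6% of all genes. The 3 were Hyou1, P4hb and Herpud1. On the second Herpud1 probe set both Alb::GC arrays lay above both wildtype arrays. Probe sets also disagreed within the 31. The second Pdia4 probe set had 0.53 and 0.90 in HFD Alb::GC livers, against 1.34 and 1.37 in HFD wildtype livers. Another Dnajc10 probe set had 0.93 and 0.86, against 0.97 and 0.96. Some others, such as Calr and Erp44, had a probe set on which the groups overlapped. The count of genes without overlap was chosen after the values were seen. The count above 0 was 40 under median centring and under quantile normalization as well.

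The gene with the smallest adjusted p in this comparison was Creld2, with the values given above and a log2 change of 1.23 ± 0.22 (adjusted p = 0.107). Ero1lb followed at 0.70 ± 0.13 (adjusted p = 0.122) and Manf at 0.66 ± 0.14 (adjusted p = 0.171). Derl3 had 1.39 and 1.43 in HFD Alb::GC livers, against 0.47 and 0.61 in HFD wildtype livers, a difference of 1.32 ± 0.46 (adjusted p = 0.367). Dnajb11 had 1.43 and 1.67 in HFD Alb::GC livers, against 0.76 and 0.97 in HFD wildtype livers, and Edem1 had 1.41 and 1.47 in HFD Alb::GC livers, against 0.85 and 0.96 in HFD wildtype livers. The groups did not overlap in any of these genes. Hyou1 had 0.45 and 0.64 in HFD Alb::GC livers, against 1.04 and 0.77 in HFD wildtype livers. That direction rests on 1 of its 3 probe sets, since another had 1.54 and 1.36 in HFD Alb::GC livers, against 1.18 and 1.07 in HFD wildtype livers, and on the other the groups overlapped.

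On LFD the lean of the 44 genes was smaller. The change was above 0 in 23 of the 44 genes and in 22 of the 69 other ER quality control genes, against 4987 of all 12393. The median was 0.02 over the 44 genes, -0.11 over the 69 and -0.08 over all genes. None of the 44 passed, against 0% of all genes, and 2 had an unadjusted p under 0.05, against 10.1%. Both Alb::GC arrays lay above both wildtype arrays in 9 genes (20.5%), against 14.4% of all genes, and below both in 5 genes (11.4%), against 26.4%. The diet by genotype interaction, which tests whether the diet change differed between the genotypes, passed in none of the 44 genes, against 0% of all genes, with 4 at an unadjusted p under 0.05, against 11.1%. It was above 0 in 37 of the 44 genes and in 50 of the 69 other ER quality control genes, against 7278 of all 12393. Its median was 0.33 over the 44 genes, 0.26 over the 69 and 0.11 over all genes. Its lowest adjusted p was 0.198, for Ero1lb at 0.90 ± 0.19, followed by 0.30 for Xbp1 at 0.78 ± 0.22. Xbp1 had 1.14 and 1.07 in HFD Alb::GC livers and 0.82 and 0.90 in HFD wildtype livers, against 0.79 and 0.85 in LFD Alb::GC livers and 1.19 and 1.06 in LFD wildtype livers. With 2 arrays a group, a difference between the diet changes of the genotypes was not shown for any single gene.

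RNA quality moved with diet. The beta-actin 3′ minus 5′ difference was -0.46 to -0.36 in HFD Alb::GC arrays and -0.72 to -0.63 in HFD wildtype arrays, against -0.17 to 0.19 in LFD Alb::GC arrays and -0.03 to 0.21 in LFD wildtype arrays. The Gapdh difference was -0.24 to -0.15 in HFD Alb::GC arrays and -0.33 to -0.23 in HFD wildtype arrays, against 0.04 to 0.17 in LFD Alb::GC arrays and 0.17 to 0.23 in LFD wildtype arrays. Every HFD array was below every LFD array in both, and the beta-actin value also parted the genotypes on HFD. Its part in the diet and genotype changes, and in the disagreement of probe sets, was not tested.

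Some markers of several cell types also passed with diet. Averaged over genotypes, 10.8% of all genes rose and 16.8% fell, and the marker counts below were not tested against these shares. Of the 11 genes listed as hepatocyte markers 3 fell with HFD, and Trh, which does not mark hepatocytes, did not pass at 0.19 ± 0.32. Sums over the 11, with Trh included, were 9.26 to 9.93 in HFD Alb::GC livers and 9.59 to 10.4 in HFD wildtype livers, against 9.27 to 10.6 in LFD Alb::GC livers and 10.6 to 11.4 in LFD wildtype livers. Of 7 exocrine pancreas markers, from a tissue rich in ER, 3 fell, with sums of 4.16 to 4.89 in HFD Alb::GC livers and 3.13 to 4.05 in HFD wildtype livers, against 7.42 to 7.62 in LFD Alb::GC livers and 7.81 to 8.34 in LFD wildtype livers. Of 8 plasma and B cell markers 1 rose, Sdc1 at 0.49, while 6 had a change below 0, and the median of the 8 was -0.26. Their sums were 5.59 to 5.81 in HFD Alb::GC livers and 6.93 to 8.55 in HFD wildtype livers, against 7.64 to 9.4 in LFD Alb::GC livers and 8.09 to 10.1 in LFD wildtype livers. The 5 neutrophil markers summed to 2.85 to 3.95 in HFD Alb::GC livers and 11.4 to 13.2 in HFD wildtype livers, against 5.38 to 5.72 in LFD Alb::GC livers and 3.85 to 5.27 in LFD wildtype livers. Averaged over genotypes 1 of the 5 rose, S100a9 at 0.88, and 1 fell, Mpo at -0.5. In wildtype livers S100a8, S100a9 and Ngp rose, by 3, 2.48 and 0.74, while Mpo at 0.07 and Elane at -0.83 did not pass. Of all genes, 6.03% rose and 7.97% fell in wildtype livers. Macrophage markers rose in 2 of 11, endothelial markers in 1 of 8, stellate cell markers fell in 1 of 10, cholangiocyte markers fell in 2 of 4 and no T cell marker of 4 passed. Their part in the ER gene changes was not tested.

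Genes with an ER stress response element rose in 6 of 12 cases and fell in 1 with HFD, with a median log2 change of 0.51. The 26 genes with a window and no element rose in 3 cases and fell in 4, with a median of 0.02, and of all 9882 measured genes with a window 10.9% rose and 16.7% fell, with a median of -0.13. The 6 were Hspa5, Hsp90b1, Dnajc3, Creld2, Ero1lb and Herpud1, and the 1 that fell was Pdia6, whose element is shown above. Of the 6, the Dnajc3 and Herpud1 calls ended in 7 of the 8 omissions and Ero1lb rose on 1 of 3 probe sets. The 14 genes with an element outside the 44 had a median of -0.29 with HFD, and 2 of them rose and 4 fell. Of the 69 other ER quality control genes, 8 rose and 16 fell, against the 10.8% and 16.8% of all genes, with a median of -0.11. The largest rises were Magt1, an accessory subunit of the oligosaccharyltransferase, at 1.12 ± 0.13, Lman1, a cargo receptor that leaves the ER, at 1.11 ± 0.13, Serpinh1, the collagen chaperone, at 0.96 ± 0.13 and Creb3l2, a membrane-bound transcription factor, at 0.83 ± 0.11. The largest falls were Uggt2 at -1.86 ± 0.22, Ern2, the IRE1 paralog of gut epithelium, at -1.38 ± 0.39, Kdelr2, a receptor that returns escaped chaperones to the ER, at -1.23 ± 0.17 and Rpn1 at -0.99 ± 0.16.

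The experiments share no arrays, and their calls can be set side by side. Herpud1 and Atf6 rose in both. Hsp90b1, Manf, Creld2, Ero1lb and Vcp fell with AP20187 and rose with HFD. Hspa5, Dnajc3, Sel1l and Ubxn4 rose with HFD and did not pass with AP20187. Dnajc10, Sdf2l1, Pdia4, Pdia6 and Ppib fell in both, the HFD fall resting on 1 probe set in each. Ero1l, Xbp1 and Ern1 rose with AP20187 and did not pass with HFD, and 19 genes fell with AP20187 and did not pass with HFD, among them Derl3, Hyou1, Dnajb11, Calr, Canx and Pdia3. The 6 genes that passed in neither were Dnajb9, Pdia5, Creld1, Derl1, Edem3 and Atf6b. On the probe set used for each gene, none rose with AP20187 and fell with HFD, but 2 other probe sets of Ern1 fell with HFD. Over all genes, 14.9% rose and 22.4% fell with AP20187, and 10.8% rose and 16.8% fell with HFD. How often these calls combine over all genes was not counted, so the numbers in each combination are a description only. The difference between the experiments was not tested, since their ratios were scaled apart.

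**Figure D5:**
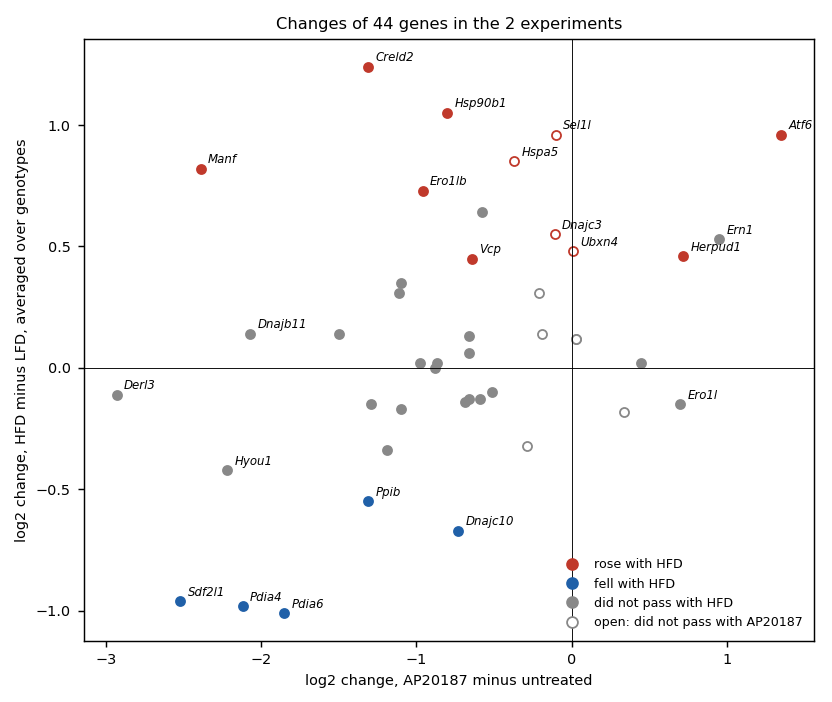
Log2 change with HFD, averaged over genotypes (y axis), against log2 change with AP20187 (x axis) for the 44 genes, coloured by the HFD call and open where the AP20187 call did not pass. Creld2, Hsp90b1, Manf, Ero1lb and Vcp lie at the upper left, lower with AP20187 and higher with HFD, and Atf6 and Herpud1 lie at the upper right.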

How the data were processed

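Liver RNA was measured on 16 one-colour Affymetrix arrays, from biotin-labelled cRNA per the labels' protocols. The deposited value is a linear ratio around 1, given by the authors to 2 decimals with a minimum of 0.01. The sources used here do not give its denominator, the software or a genome build. Groups followed the description of each array, also for 2 arrays whose source name is ambiguous.

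Control probe sets (64) were left out. Linear models were fitted on log2(ratio + 0.05) with limma 3.58.1 in R 4.3.3 (version 1.17.8 of data.table read the files), apart for each experiment, with moderated variances that follow the mean. All tests were two-sided. The fit of the TTR::Fv2E-PERK experiment had 6 residual and 2.06 prior degrees of freedom, the diet fit 4 and 2.3. The number of arrays limits the precision. Replicate arrays correlated at 0.442 to 0.658 and none was a duplicate. Gene symbols came from the platform annotation, which can be old. A gene's value is its probe set with the smallest residual spread within the 6 groups, and 691 probe sets with several symbols named no gene. The steps were tested on simulated data.

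The 44 genes, the other lists and the tests were chosen with earlier results of these data known. By the rule for named genes, values in every array are given for genes that passed with AP20187 and changed by at least 1 (log2) on any probe set, for genes that passed in a diet comparison, for Xbp1, Atf6 and Ern1 and for genes moving against the majority. Other ER genes are named up to 4 in each direction. Promoter sequences are RefSeq's, GRCm38.p6. Protein features were not analysed here. Alternatives were the offset, 2 scalings, a filter, the variance model, the arrays fitted, each array left out and the probe set rule. Figures used matplotlib 3.10.9 (Python 3.11.15).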

Additional observations from a re-analysis of the deposited data

Results flagged for a closer look

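In 88 groups of 4 arrays, each gene in AP20187 and in untreated livers, 6 held 1 array whose gap to its nearest neighbour, as a share of the whole range, exceeded Dixon's critical value. Chance flags about 1 in 20 groups. Calr was 0.78 in AP20187 array 3, where the others were 0.63 to 0.64. Derl3 was 0.56 in AP20187 array 4, where the others were 0.91 to 0.95. Edem2 was 1.09 in AP20187 array 3, where the others were 0.77 to 0.79. Among untreated arrays, Derl2 was 2.46 in array 4, where the others were 2.02 to 2.09, and Os9 was 1.44 in array 3, where the others were 1.54 to 1.56. Ubxn4 was 1.06 in untreated array 2, where the others were 0.89 to 0.91. The calls for Calr, Derl3, Edem2, Derl2 and Os9 held when any 1 array was left out, and Ubxn4 did not pass with AP20187.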

How the results depend on the processing

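With AP20187, 30 of the 34 calls held in each of the 17 alternatives run for that comparison, the exceptions being Ern1, Sdf2, Syvn1 and Xbp1, and the counts stayed at 4 to 5 higher and 27 to 30 lower. With HFD averaged over genotypes, 6 of 16 calls held in each of the 17 run for it. There, leaving out 1 array gave 7 to 11 genes higher and 1 to 6 lower, and 2 were lower with the probe set of highest mean and 1 with the mean of a gene's probe sets. In wildtype livers, leaving out 1 array gave 0 to 4 higher and 0 to 5 lower. Fitting the compared groups alone, with 4 arrays, gave 0 higher and 0 lower. Quantile normalization left 2 lower in wildtype, and the probe set of highest mean and the mean of probe sets left 1 each. In Alb::GC livers, leaving out 1 array gave 0 to 8 higher, the compared groups alone 0 higher, and 1 fit over 16 arrays 12 higher and 1 lower. That fit also called 1 gene higher in Alb::GC than in wildtype livers on HFD and 1 gene in the interaction. With the probe set of highest mean, directions turned for Xbp1 with AP20187 (-0.23), Dnajc10 (0.09) and Pdia6 (0.27) in wildtype, and Pdia6 (0.43) and Ero1lb (-0.07) averaged over genotypes; these are other probe sets of the same genes, and the cause of their disagreement was not tested. No paired analysis was possible because the labels number arrays in sequence and share no replicate numbers between groups. Where an omission leaves 1 array in a group, that array is assumed to vary like the others. Ratios hold no signal above background, so no gene could be judged by its brightness.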
